A study of Mus musculus with 23 samples.

Results

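Hedgehog signalling genes were followed across the sorted cell populations of the mouse incisor stem cell niche: the ligand Shh, the receptors and ligand-binding proteins Ptch1, Smo, Boc, Gas1 and Hhip, and the transcription factors Gli1, Gli2 and Gli3. These 9 genes were taken by symbol from the 54347 genes of the count table, and all 9 passed the filter on low counts in every fit. Hhip passed through its Sox2-Negative libraries, so its tests are a description. The tissue was the labial cervical loop of the lower incisor, the fold of epithelium and surrounding tissue at the growing end of the tooth, from mice at postnatal day 2. All 4 groups came from the Sox2-GFP line, in which the endogenous Sox2 promoter drives green fluorescent protein, and none received a treatment named in the labels. Tissue was dissociated with collagenase and neutral protease, sorted by fluorescence, and sequenced with Smart-seq2, a full-length cDNA method. The groups were batchA Sox2-Negative (n = 6), batchA Sox2-Positive (n = 6), batchB Sox2-Negative (n = 4) and batchB Sox2-Positive (n = 7). The batches were separate days with different mice, so day and mice cannot be told apart. Nothing in the labels says whether the libraries of a batch came from separate mice or pooled cells, so the p-values measure the spread between libraries, which may be technical.

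In this pathway, Hedgehog ligand binds Patched 1 on the receiving cell and releases Smoothened from its inhibition, and the signal passes through the primary cilium to the Gli factors. Gli1, Ptch1 and Hhip are themselves direct transcriptional targets, so their transcript levels are widely read as the output of the pathway. In the incisor, Shh is made by epithelium, and both the epithelium and the mesenchyme beside it receive the signal.

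Library totals ran from 2.31 to 9.54 megacounts. All levels are given in CPM, which is a gene's count divided by its library's TMM-scaled total in megacounts. The floor, taken as 3 counts over the unscaled library total, lay between 0.314 and 1.30 CPM. Sox2 averaged 7.38 ± 4.47 CPM and 16.8 ± 2.97 CPM (SD) in the Sox2-Positive libraries of batchA and batchB, and was at 0 in all but 1 Sox2-Negative library of each batch. All 7 epithelial markers were higher and all 9 mesenchymal markers were lower in Sox2-Positive libraries, with summed levels of at least 3764 CPM against at most 402 CPM for the first list, and at most 1802 CPM against at least 10600 CPM for the second. The glial and neural crest markers summed to between 763 and 984 CPM in batchA Sox2-Positive libraries but to between 37.7 and 73.3 CPM in those of batchB. The Sox2-Negative libraries also held endothelial, leukocyte and erythroid transcripts, the last summing to at least 33953 CPM in batchB and at most 808 CPM in batchA. In batchB the Sox2-Positive libraries numbered 1 and 2 stood apart, with Krt5 between 573 and 623 CPM and between 1207 and 1356 CPM in the others. In Sox2-Negative libraries Krt5 was between 66.9 and 78.8 CPM in these numbers and between 87.2 and 87.6 CPM in the others, while Krt14 overlapped. Where the batchB libraries numbered 1 and 2 are left out below, both populations lose them, and 2 batchB Sox2-Negative libraries remain.

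Sorted by role, the members split. In both batches the receptor and target gene Ptch1, the ligand-binding antagonist Hhip, the co-receptor Gas1 and the factors Gli1 and Gli3 were lower in Sox2-Positive cells, and Smo was higher. Shh was 5.61-fold higher in Sox2-Positive cells of batchA and was not called in batchB, and Boc was 2.38-fold higher in batchB and was not called in batchA. Over both batches with batch as a covariate, 7 of the 9 members were called, 2 higher and 5 lower (edgeR quasi-likelihood test, adjusted p under 0.05), where 57.5% of the 17190 genes tested were called, 24.9% higher and 32.5% lower. In batchA 7 of 9 were called, 2 higher and 5 lower, against 43.4% of genes, 19.3% higher and 24.2% lower. In batchB 7 of 9 were called, again 2 higher and 5 lower, against 54.7% of genes, 27.1% higher and 27.6% lower. Hhip, whose tests are a description, is among the 5 lower members in each of these counts. The median log2 fold change of the members over both batches was -0.76, against -0.12 for all genes tested. Scaling by total counts in place of TMM moved the median of all genes to 0.0034.

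The member genes lie apart in the genome except that Ptch1, Gli3 and Gas1 share chromosome 13. On the mm10 build with GENCODE M21, all are protein coding genes. Shh (ENSMUSG00000002633.4) is at chr5:28456815-28467256 on the minus strand, Ptch1 (ENSMUSG00000021466.12) at chr13:63508328-63573598 on the minus strand, and Smo (ENSMUSG00000001761.7) at chr6:29735503-29761365 on the plus strand. Gli1 (ENSMUSG00000025407.7) is at chr10:127329882-127341974, minus, Gli2 (ENSMUSG00000048402.14) at chr1:118834132-119053619, minus, and Gli3 (ENSMUSG00000021318.15) at chr13:15463235-15730026, plus. Hhip (ENSMUSG00000064325.4) is at chr8:79965851-80058006, minus, Boc (ENSMUSG00000022687.12) at chr16:44485049-44558897, minus, and Gas1 (ENSMUSG00000052957.8) at chr13:60174405-60177365, minus. No strand setting of the counting is given, and 5 members share exonic bases with a gene on the other strand, from which reads could not be told apart without strand. The largest shared stretch was 589 of the 2961 exonic bases of Gas1, with Gm48488, which reached 13.2 CPM. Shh shared 446 of 2847 bases with 9530036O11Rik, which reached 2.21 CPM, and Gli1 shared 62 of 4995 bases with Arhgap9, which reached 26.0 CPM.

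The ligand Shh, the signal that the incisor epithelium secretes, was the member whose difference between the populations changed with the batch. In batchA Sox2-Negative libraries Shh ranged from 6.52 to 27.2 with a median of 17.2 CPM, and in batchA Sox2-Positive libraries from 77.4 to 124 with a median of 105 CPM. Every batchA Sox2-Positive library was above every Sox2-Negative one. In batchB the Sox2-Negative libraries read 54.9, 34.2, 25.4 and 70.8 CPM, and the Sox2-Positive libraries ranged from 22.9 to 45.3 with a median of 35.2 CPM. In that batch the populations overlapped, and all 4 Sox2-Negative libraries except 1 lay above the 27.2 CPM that was the batchA Sox2-Negative maximum.

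The log2 fold change of Shh was 2.49 (SE 0.29, adjusted p 4.17e-06) in batchA and -0.46 (SE 0.25, adjusted p 0.138) in batchB (edgeR). Their difference, the population by batch interaction fitted over all 23 libraries, was -3.01 (SE 0.40, adjusted p 1.07e-05), and Shh was the 1 member of 9 for which it was called, where 7.04% of genes were called, 2.82% with a positive and 4.22% with a negative value. It was called under all 9 alternative settings and with each library left out. Both populations moved: batchB against batchA, Shh was higher in Sox2-Negative cells, 1.39 (SE 0.30, adjusted p 0.00268), and lower in Sox2-Positive cells, -1.62 (SE 0.26, adjusted p 7.72e-05). The value over both batches, 0.98 (SE 0.37, adjusted p 0.0269), averages these unlike differences, and lost its call without batchA Sox2-Negative library 2 (adjusted p 0.0530), 3 (0.0580) or 5 (0.0587) and with counts thinned to the smallest total (0.0694). In batchB the lower Shh of Sox2-Positive cells was called without Sox2-Negative library 3 (-0.65, adjusted p 0.0271) and with thinned counts (-0.80, adjusted p 0.0349).

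Markers of other cells moved between the batches beside Shh. In Sox2-Positive libraries the ameloblast list, the enamel-forming lineage in which Shh is also made, summed to between 292 and 359 CPM in batchA and between 6.73 and 10.6 CPM in batchB, with Klk4 at 0 in all batchA and Enam at 0 in all batchB Sox2-Positive libraries. The glial list summed to at least 763 CPM in the first and at most 73.3 CPM in the second. In Sox2-Negative libraries the epithelial list was between 155 and 271 CPM in batchA and between 371 and 402 CPM in batchB, while the ameloblast list was between 705 and 915 CPM in batchA and between 566 and 699 CPM in batchB. Their part in the Shh values was not tested. In bulk libraries such as these, fewer cells of a type and less RNA per cell cannot be told apart. Within batchB Sox2-Positive libraries Shh was between 41.5 and 45.3 CPM in libraries 1 and 2 and between 22.9 and 36.9 CPM in the others, and without the libraries so numbered the interaction was -3.20 (adjusted p 2.64e-04).

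**Figure D1:**
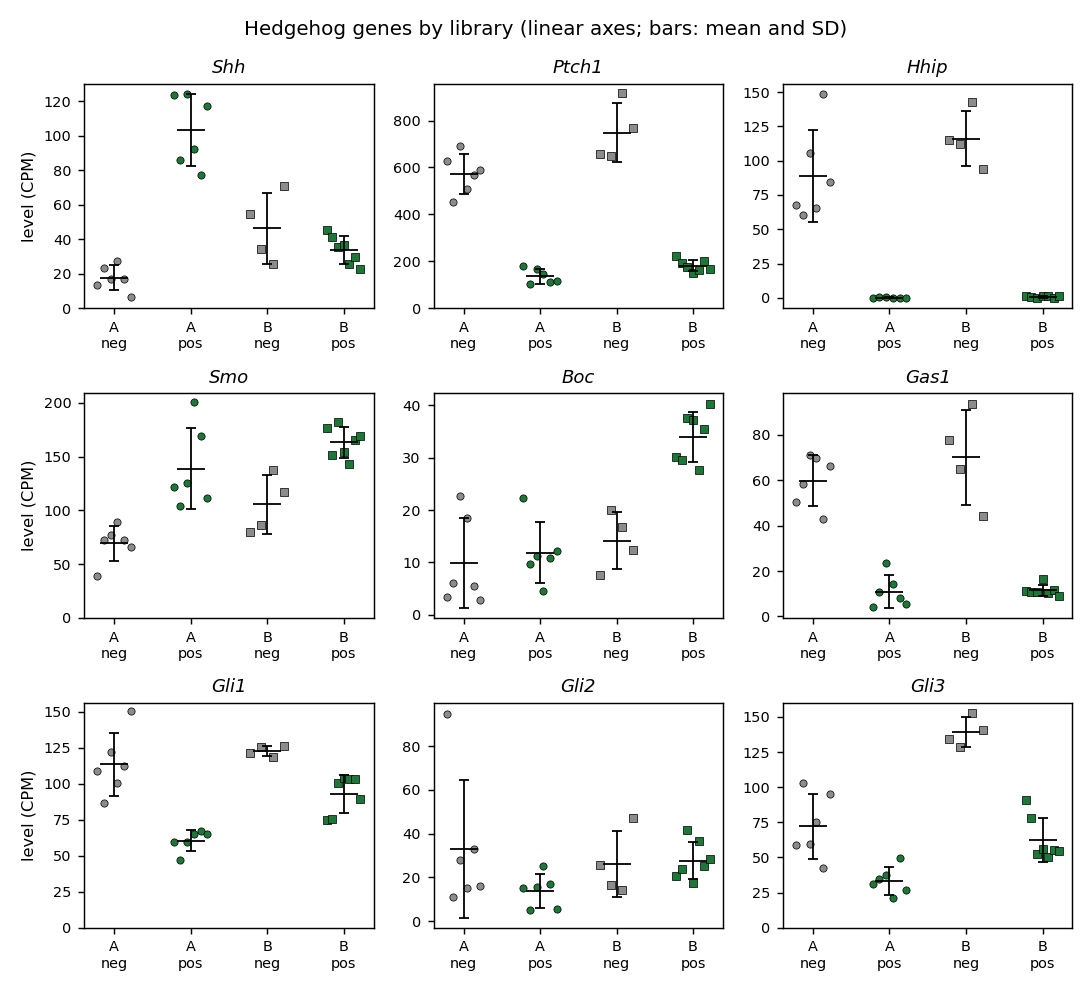
Level of each Hedgehog gene in each of the 23 libraries, in CPM on linear axes, by batch (A, circles; B, squares) and population (neg, Sox2-Negative, grey; pos, Sox2-Positive, green), with the group mean and SD as bars. Ptch1, Hhip and Gas1 were lower in every Sox2-Positive library than in every Sox2-Negative library of the same batch, while Shh stood high in the batchA Sox2-Positive libraries.

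Ptch1, the receptor that holds Smoothened inactive and is induced by the signal, was the member with the highest level per kilobase in Sox2-Negative cells and was 4.40-fold lower in Sox2-Positive cells. In batchA it ranged from 453 to 689.7 with a median of 579 CPM in Sox2-Negative libraries and from 101 to 178 with a median of 132 CPM in Sox2-Positive ones. In batchB the Sox2-Negative libraries read 656, 651, 917 and 769 CPM and the Sox2-Positive libraries ranged from 149.8 to 224 with a median of 174 CPM. No Sox2-Positive library reached the lowest Sox2-Negative one in either batch. By edgeR its log2 fold change was -2.14 (SE 0.16, adjusted p 2.01e-08) in batchA, -2.06 (SE 0.12, adjusted p 5.12e-10) in batchB and -2.14 (SE 0.10, adjusted p 9.13e-16) over both, and the interaction was 0.022 (SE 0.20, adjusted p 0.982).

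Hhip, a membrane protein that binds Hedgehog ligands and keeps them from Patched, separated the populations by the largest fold of all members. Its Sox2-Negative levels ranged from 60.6 to 149 with a median of 76.01 CPM in batchA and were 115, 112, 143 and 94.3 CPM in batchB. In Sox2-Positive libraries it was at 0 in 4 of 6 libraries of batchA and 2 of 7 of batchB. It reached at most 0.552 CPM in batchA, from 3 counts and so at the floor. In batchB it reached at most 1.60 CPM, from 9 counts in library 1 and so above the floor. Summed over libraries, 2300 counts stood against 5 in batchA, a ratio of 546 (95% counting interval 234 to 1684), and 3250 against 24 in batchB, a ratio of 160 (107 to 249.7). Such intervals and floors describe counting error alone, as PCR copies were not marked by molecular identifiers. Hhip was called lower in each batch, with an edgeR log2 fold change of -8.93 (SE 0.57, adjusted p 4.20e-09) and of -7.26 (SE 0.43, adjusted p 7.37e-10), and its interaction was 1.65 (SE 0.89, adjusted p 0.314). As Hhip passed the filter through the population in which it was high, these values are a description.

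Gas1, a membrane-anchored co-receptor that binds Shh and helps present it to Patched, was 6.07-fold lower in Sox2-Positive cells. Its Sox2-Negative levels ranged from 43.2 to 71.1 with a median of 62.5 CPM in batchA and were 77.9, 64.8, 93.8 and 44.3 CPM in batchB, and its Sox2-Positive levels ranged from 4.03 to 23.6 with a median of 9.33 CPM in batchA and from 8.92 to 16.6 with a median of 10.8 CPM in batchB. The ranges did not meet in either batch. By edgeR the log2 fold change of Gas1 was -2.51 (SE 0.38, adjusted p 6.39e-05) in batchA and -2.62 (SE 0.22, adjusted p 7.10e-08) in batchB.

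Ptch1, Hhip and Gas1 fell beside the mesenchymal markers, of which all 9 were lower in Sox2-Positive libraries and Twist1 was at 0 in every Sox2-Positive library. They were not alone: over both batches 5 endothelial, 5 leukocyte, 4 erythroid, 4 ameloblast, 3 pericyte and 2 odontoblast markers, all that were tested, were lower too. All 7 epithelial and all 5 glial and neural crest markers were higher. The part of any of these cells in the differences of the 3 genes was not tested. The transcription start regions of the 3 genes are shown because these members had the largest differences that were called in both batches. Each line gives the 250 bases before the start of the RefSeq gene model on GRCm38.p6, read along the gene's strand, with capitals marking GGGCGG or its reverse complement CCGCCC, the GC box bound by Sp-family factors. The Hhip window is at chr8:80058009-80058258, the Ptch1 window at chr13:63565736-63565985 and the Gas1 window at chr13:60177536-60177785, all on the minus strand, and none holds an exonic base of its gene in GENCODE M21. The Ptch1 window lies inside the annotated gene body, in intron of its longer transcripts, and the other windows lie before their genes.
Hhip: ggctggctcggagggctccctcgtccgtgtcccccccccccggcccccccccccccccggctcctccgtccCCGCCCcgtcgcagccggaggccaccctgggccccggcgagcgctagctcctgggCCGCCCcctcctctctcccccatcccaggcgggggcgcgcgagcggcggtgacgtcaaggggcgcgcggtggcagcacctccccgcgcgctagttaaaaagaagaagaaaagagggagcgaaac
Ptch1: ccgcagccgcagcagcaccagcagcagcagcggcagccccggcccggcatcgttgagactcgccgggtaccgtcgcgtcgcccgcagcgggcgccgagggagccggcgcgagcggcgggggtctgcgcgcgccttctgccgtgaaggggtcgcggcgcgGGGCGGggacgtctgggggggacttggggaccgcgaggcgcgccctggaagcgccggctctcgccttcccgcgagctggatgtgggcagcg
Gas1: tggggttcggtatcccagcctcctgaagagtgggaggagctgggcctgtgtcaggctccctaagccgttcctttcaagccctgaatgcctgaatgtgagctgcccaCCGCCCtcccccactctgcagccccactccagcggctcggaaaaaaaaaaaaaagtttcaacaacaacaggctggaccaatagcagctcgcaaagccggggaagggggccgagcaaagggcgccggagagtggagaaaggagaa
The windows of Hhip and Ptch1 were rich in G and C, at 76.0% and 78.4% with 28 and 41 CpG pairs, and that of Gas1 held 58.8% with 10 CpG pairs. Promoters of 6 members (Gas1, Gli2, Gli3, Hhip, Ptch1 and Smo) were matched by symbol, as windows of 300 bases that run to 50 bases past the start. In these, GGGCGG on either strand was present in 5 of 6, all but Smo, and in 35.7% of all 32851 RefSeq promoters of the same length; this motif was added after the data had been seen. The Gli-binding consensus GACCACCCA or its reverse complement TGGGTGGTC was in 0 of the 6 windows and in 0.253% of all promoters, 83 of 32851, so that these letters are not in these windows. A match is a description of the letters and not a bound site.

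Smo, the transducer that Patched holds in check, went the other way from Ptch1. It ranged from 39.03 to 88.8 with a median of 72.7 CPM in batchA Sox2-Negative libraries and from 104 to 201 with a median of 124 CPM in batchA Sox2-Positive ones. In batchB the Sox2-Negative libraries read 80.1, 86.8, 138 and 117 CPM, and the Sox2-Positive libraries ranged from 143 to 183 with a median of 166 CPM. Each Sox2-Positive library was above every Sox2-Negative library of its batch, and in batchB Sox2-Negative libraries 1 and 2 were the lowest. The edgeR log2 fold change of Smo was 0.75 (SE 0.14, adjusted p 3.85e-05) over both batches, 0.93 (SE 0.21, adjusted p 0.00185) in batchA and 0.62 (SE 0.15, adjusted p 0.00218) in batchB. Without the batchB libraries numbered 1 and 2 it was 0.34 (adjusted p 0.0517) in that batch, which ends the call there.

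Boc, a co-receptor of the immunoglobulin family that binds Hedgehog ligand, was low in 3 of the 4 groups and higher in batchB Sox2-Positive cells. It ranged from 2.87 to 22.8 with a median of 5.77 CPM in batchA Sox2-Negative libraries and from 4.56 to 22.4 with a median of 11.03 CPM in batchA Sox2-Positive libraries, which overlapped. In batchB the Sox2-Negative libraries read 7.48, 20.02, 16.8 and 12.3 CPM and the Sox2-Positive libraries ranged from 27.6 to 40.3 with a median of 35.4 CPM, with no overlap. The log2 fold change was 0.19 (SE 0.58, adjusted p 0.811) in batchA and 1.25 (SE 0.27, adjusted p 8.66e-04) in batchB (edgeR), but the interaction was 0.99 (SE 0.64, adjusted p 0.426), so the batches were not shown to differ in it. The batchB call was lost in the fit of 4 group means (1.18, adjusted p 0.0512). Over both batches the value was 0.64 (SE 0.34, adjusted p 0.112), and it was called without batchA Sox2-Negative library 3 (0.89, adjusted p 0.0167) or 4 (0.82, adjusted p 0.0365), 2 libraries in which Boc was at 22.8 and 18.6 CPM.

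Among the Gli factors, Gli1, the activator whose own transcription is a standard readout of the pathway, was lower in Sox2-Positive cells by less than Ptch1 or Hhip. It ranged from 86.4 to 151 with a median of 110.5 CPM in batchA Sox2-Negative libraries and from 46.9 to 67.1 with a median of 62.3 CPM in batchA Sox2-Positive ones. In batchB it was 121, 125, 119 and 126 CPM in Sox2-Negative libraries and ranged from 74.9 to 104 with a median of 100.3 CPM in Sox2-Positive libraries. In this last group libraries 1 and 2 were the lowest, between 74.9 and 75.3 CPM, and the others lay between 89.2 and 104 CPM. The ranges of the populations did not meet in either batch, and Gli1 transcripts were well above the floor in every Sox2-Positive library. The log2 fold change was -0.98 (SE 0.17, adjusted p 1.77e-04) in batchA and -0.42 (SE 0.14, adjusted p 0.0183) in batchB (edgeR), the value over both batches was -0.76 (SE 0.12, adjusted p 3.70e-06), and the interaction was 0.50 (SE 0.21, adjusted p 0.174). In batchB the call was lost without the libraries numbered 1 and 2 (-0.31, adjusted p 0.0754), with total-count scaling (-0.34, adjusted p 0.0501), with no filter (-0.37, adjusted p 0.0717) and with thinned counts (-0.32, adjusted p 0.156).

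Gli3, whose processed form is the main repressor of Hedgehog targets, was lower in Sox2-Positive cells in each batch. It ranged from 42.8 to 103 with a median of 67.4 CPM in batchA Sox2-Negative libraries and from 20.9 to 49.5 with a median of 32.7 CPM in batchA Sox2-Positive libraries. The batchB Sox2-Negative libraries read 134, 129, 153 and 141 CPM, above every other library of the series, and the batchB Sox2-Positive libraries ranged from 50.6 to 91.2 with a median of 54.99 CPM. In that last group Gli3 was between 78.0 and 91.2 CPM in libraries 1 and 2 and between 50.6 and 56.2 CPM in the others. The populations overlapped in batchA, where 1 Sox2-Positive library exceeded the lowest Sox2-Negative one, and did not in batchB. The log2 fold change was -1.19 (SE 0.26, adjusted p 0.00177) in batchA and -1.17 (SE 0.16, adjusted p 1.13e-05) in batchB (edgeR), with -1.22 (SE 0.15, adjusted p 1.60e-07) over both batches and an interaction of -0.044 (SE 0.31, adjusted p 0.975).

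Gli2, the main initial activator of the pathway, was not called in any comparison by edgeR at the main settings. It ranged from 11.2 to 94.9 with a median of 22.01 CPM in batchA Sox2-Negative libraries, from 5.15 to 25.4 with a median of 15.2 CPM in batchA Sox2-Positive libraries and from 17.6 to 41.5 with a median of 25.05 CPM in batchB Sox2-Positive libraries, and read 25.6, 16.7, 14.4 and 47.3 CPM in batchB Sox2-Negative libraries. All of these ranges overlap. Gli2 had a log2 fold change of -1.33 (SE 0.55, adjusted p 0.0604) in batchA and 0.079 (SE 0.32, adjusted p 0.852) in batchB (edgeR). The batchA value was called as lower with DESeq2 (adjusted p 0.0326), with thinned counts (0.0216), in the fit of 4 group means (0.0197), and without Sox2-Negative library 2 (0.0344), 4 (0.0455) or 6 (0.0461) or Sox2-Positive library 4 (0.0431). Without Sox2-Negative library 1, at 94.9 CPM, it was -0.64 (adjusted p 0.306). Over both batches it was -0.74 (SE 0.38, adjusted p 0.0937), called with thinned counts (-0.88, adjusted p 0.0474). Between the batches in Sox2-Positive cells Gli2 was 0.98 (SE 0.45, adjusted p 0.198), called as higher in batchB with voom (1.14, adjusted p 0.0427).

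**Figure D2:**
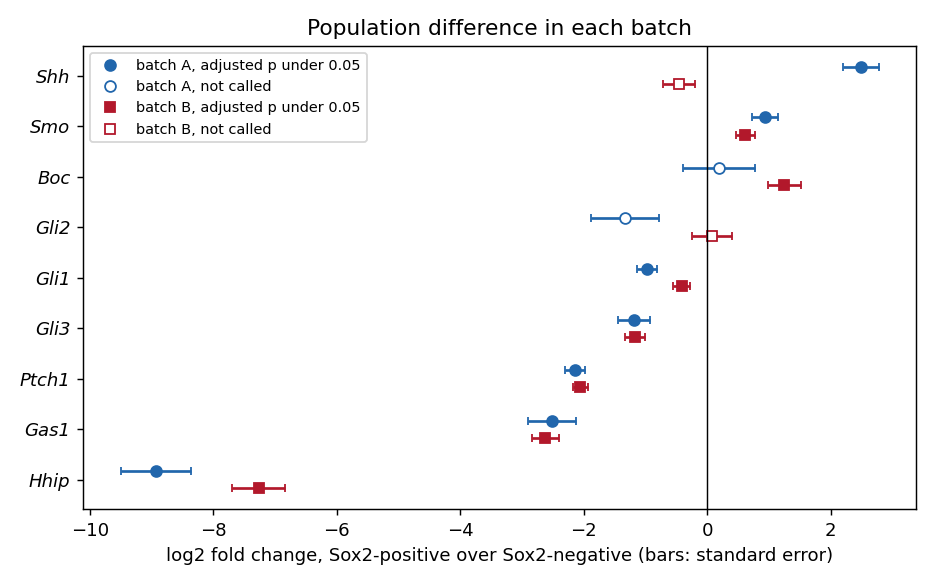
Log2 fold change of Sox2-Positive over Sox2-Negative cells for each Hedgehog gene in batchA (blue circles) and batchB (red squares), with bars of 1 SE, filled where the adjusted p was under 0.05. The batches lay close together for Ptch1, Gli3 and Gas1 and on opposite sides of 0 for Shh, at 2.49 and -0.46.

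Counted by library rather than by test, 6 of 9 members did not overlap between the populations in batchA, 2 higher and 4 lower, where 28.4% of genes tested did not overlap, 13.9% higher and 14.6% lower. In batchB 7 of 9 did not overlap, 2 higher and 5 lower, where the share was 38.1%, 19.1% higher and 18.9% lower. Smo was above and Ptch1, Gli1, Hhip and Gas1 were below in both batches, so the groups of 5 members were apart on both days. As Hhip passed the filter through its Sox2-Negative libraries, its place in these counts is a description.

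Ratios within a library, which need no scaling between libraries, were taken between members that were lower in Sox2-Positive cells. The count of Ptch1 over that of Gli1 ran from 3.91 to 5.76 and from 1.64 to 3.00 in batchA, and from 5.19 to 7.71 and from 1.44 to 3.00 in batchB, Sox2-Negative first, so the populations were apart by this ratio on both days. Gli3 over Gli1 overlapped in batchA, at 0.381 to 1.19 and 0.320 to 0.738, and in batchB, at 1.03 to 1.29 and 0.490 to 1.22. Its medians were 0.584 and 0.574 in batchA and 1.11 and 0.540 in batchB. Only Sox2-Positive libraries 1 and 2 reached the Sox2-Negative range in batchB. These ratios are not corrected for gene length and are compared between libraries only.

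Between the batches, members differed within each population as well. In Sox2-Negative cells 2 of 9 members were called, both higher in batchB, Shh as above and Gli3 at 0.93 (SE 0.23, adjusted p 0.00766) (edgeR), where the share over all genes was 11.2%, with 5.85% higher and 5.35% lower. In Sox2-Positive cells 4 of 9 were called, where 10.4% of genes were, 4.85% higher and 5.54% lower. Shh was lower, and Gli1 at 0.60 (SE 0.14, adjusted p 0.00400), Gli3 at 0.89 (SE 0.21, adjusted p 0.00433) and Boc at 1.51 (SE 0.43, adjusted p 0.0206) were higher in batchB. Without the batchB libraries numbered 1 and 2, Gli3 was 0.99 (adjusted p 0.0503) in Sox2-Negative cells and 0.68 (adjusted p 0.0791) in Sox2-Positive cells and Boc 1.58 (adjusted p 0.0550), none of them called, while Smo in Sox2-Negative cells was called (0.85, adjusted p 0.0469) and Shh and Gli1 kept their calls. Boc was also lost without batchA Sox2-Positive library 4 (1.34, adjusted p 0.0533). Leaving out the batchB libraries numbered 1 and 2 kept 2 batchB Sox2-Negative libraries. It did not shrink the values of Gli3 in Sox2-Negative cells or of Boc, and it shrank that of Gli3 in Sox2-Positive cells. The reason for the lost calls was not tested.

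Some members that were not called in these batch comparisons were called when 1 library was left out. Ptch1 in Sox2-Positive cells was 0.39 (SE 0.13, adjusted p 0.0554) (edgeR), and was called without batchA library 1 (0.50, adjusted p 0.0165) or 3 (0.46, adjusted p 0.0302) or batchB library 4 (0.44, adjusted p 0.0411). Hhip there was 2.02 (SE 0.80, adjusted p 0.117) and was called without batchB library 3 (2.31, adjusted p 0.0449), on counts near the floor. Smo in Sox2-Negative cells was 0.59 (SE 0.20, adjusted p 0.0502) and was called without batchA library 4 (0.68, adjusted p 0.0267) or batchB library 1 (0.71, adjusted p 0.0348). Over all genes the split of these batch calls depended on the scaling: in Sox2-Negative cells 1005 were higher and 919 lower with TMM, and 661 and 1388 with total counts, which moved the median of all genes from -0.0041 to -0.15. In Sox2-Positive cells the split was 833 and 952 with TMM and 666 and 1214 with total counts.

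Levels of different members were compared as CPM per kilobase of the longest annotated transcript. In batchA Sox2-Negative libraries Ptch1 came first at a mean of 55.2 CPM per kilobase, apart from Gli1 at 28.0, and each later pair of neighbours, Gas1 at 20.2, Smo at 18.3, Hhip at 9.79, Gli3 at 8.85, Shh at 6.16, Gli2 at 4.98 and Boc at 2.21, overlapped. In batchA Sox2-Positive libraries Smo at 36.7 and Shh at 36.3 CPM per kilobase overlapped at the top, followed, apart, by Gli1 at 14.9 and Ptch1 at 13.1, which overlapped, then by Gli3 at 4.08, Gas1 at 3.71, Boc at 2.65 and Gli2 at 2.09, which overlapped, and by Hhip at 0.0171. On this scale Ptch1 led in Sox2-Negative libraries and did not in Sox2-Positive libraries, but with the median transcript length it led in both.

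The order in batchB was similar at its top and bottom. In Sox2-Negative libraries Ptch1 led at 72.0 CPM per kilobase, apart from Gli1 at 30.3, Smo at 27.9, Gas1 at 23.7, Gli3 at 17.05, Shh at 16.3 and Hhip at 12.8, whose neighbours overlapped, and Gli2 at 3.92 and Boc at 3.18 came last, apart from these. In Sox2-Positive libraries Smo led at 43.3, apart from Gli1 at 22.9, and Ptch1 at 17.5, Shh at 11.9, Gli3 at 7.66, Boc at 7.63, Gli2 at 4.17 and Gas1 at 3.87 followed with neighbours that overlapped, apart from Hhip at 0.0924. The order rests on the length: with the median transcript length 13 of the 36 ranks over the 4 groups were kept, and Ptch1 led in all 4.

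**Figure D3:**
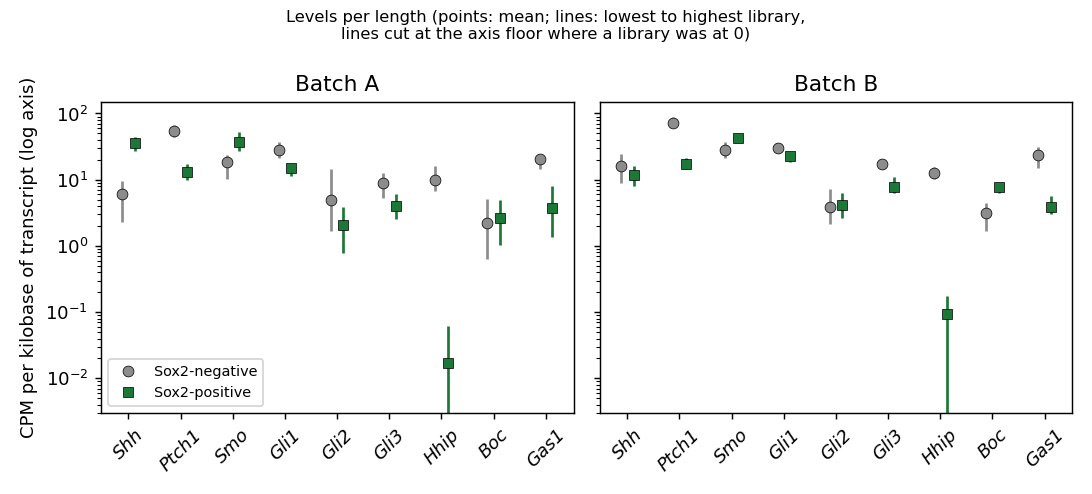
Levels of the Hedgehog genes as CPM per kilobase of the longest transcript, on a log axis, in batchA (left) and batchB (right), with the mean as a point (grey circles, Sox2-Negative; green squares, Sox2-Positive) and a line from the lowest to the highest library. Ptch1 was the highest member in both Sox2-Negative groups, and Hhip the lowest in both Sox2-Positive groups at 0.0171 and 0.0924 CPM per kilobase.

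The genes whose log2 CPM followed each member most closely over the 23 libraries are given as a description, since all points share the sort and the batches. For Hhip these were Dkk1 (Pearson r 0.985) and Prrx2 (0.981), for Ptch1 Igf2 (0.966) and Gm34030 (0.965), and for Gas1 Iqsec1 (0.962) and Crtap (0.954). For Gli3 they were Amotl1 (0.910) and C1qtnf6 (0.906), for Smo Chmp2b (0.910) and Rnd2 (0.909), and for Gli1 Nfatc4 (0.886) and Zc3h7b (0.883). Shh was followed by Artn (0.866) and Fabp7 (0.864), Boc by Slc39a6 (0.821) and Krcc1 (0.810), and Gli2 by Eya2 (0.763) and Wdr1 (0.759). Fabp7 averaged 75.5 CPM in batchA Sox2-Positive libraries and at most 4.76 CPM in the other groups, the same group in which Shh was highest.

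Among the members themselves Ptch1 and Hhip (r 0.95), Hhip and Gas1 (0.93) and Ptch1 and Gas1 (0.91) varied most alike over the 23 libraries. Ptch1 and Gli1, both targets of the pathway, had an r of 0.79. Over the 23 libraries Shh had a negative r with Gli1 (-0.75), Hhip (-0.60) and Ptch1 (-0.57). All of these values mix the sort and the batches, and relations within a group were not tested. Boc and Gli2 had an r of 0.0019.

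Of 37 other genes of the pathway, 34 were tested, and Ihh, Lrp2 and Foxl1 did not pass the filter. Over both batches 13 were higher and 7 lower in Sox2-Positive cells, against 24.9% and 32.5% of all genes, with a median log2 fold change of 0.026. In batchA 13 of 33 tested were higher and 6 lower (median 0.44), against 19.3% and 24.2% of all genes. In batchB 9 of 33 were higher and 10 lower (median 0.00014), against 27.1% and 27.6%. Of the 8 ligand and ligand-processing genes tested 6 were higher and 1 lower, and of the 7 tested in each batch alone 6 were higher in batchA and 4 in batchB, with 1 lower in each. Scube3 and Scube1, secreted proteins of a family that helps release Hedgehog ligand, moved in opposite directions. They and Spop, Csnk1a1, Ift88, Tulp3, Foxf2 and Ccnd2 below were picked among genes called in these same tests. Their fold changes and p-values are therefore a description. Scube3 averaged 42.6 ± 21.5 CPM and 224 ± 15.4 CPM in the Sox2-Negative and Sox2-Positive libraries of batchA and 74.6 ± 16.6 CPM and 335 ± 49.7 CPM in those of batchB (SD), a log2 fold change of 2.21 (SE 0.17, adjusted p 1.10e-11) by edgeR. Scube1 averaged 140.3 ± 42.2 CPM and 9.51 ± 5.01 CPM in batchA and 152 ± 26.1 CPM and 1.22 ± 0.771 CPM in batchB, a log2 fold change of -5.15 (SE 0.38, adjusted p 6.84e-12).

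Dhh, the desert hedgehog ligand, was named after its values were seen. It ranged from 20.6 to 38.9 CPM in batchA Sox2-Positive libraries and did not exceed 0.782 CPM in Sox2-Negative libraries or 4.52 CPM in batchB Sox2-Positive libraries. In batchA 991 counts stood against 5, a ratio of 167 (95% counting interval 71.3 to 515), and in batchB 29 against 1, where 24 of the 29 came from 1 library and the gene did not pass the filter. Since Dhh was chosen for this pattern and passed the filter through its batchA Sox2-Positive libraries, its levels are a description. The glial and neural crest list was lower in batchB Sox2-Positive libraries, at most 73.3 CPM against at least 763 CPM in those of batchA. Dhh is known as a product of Schwann cells. Their part in the Dhh values was not tested.

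Cdon, a co-receptor related to Boc, was not called between the populations, at 0.056 (SE 0.35, adjusted p 0.899) over both batches (edgeR). It averaged 7.30 ± 6.75 CPM and 9.20 ± 2.89 CPM in batchA and 22.2 ± 5.48 CPM and 21.1 ± 9.45 CPM in batchB (SD, Sox2-Negative first). Cdon was named after its values were seen.

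Of 12 intracellular regulators 5 were higher and 1 lower over both batches, against 24.9% and 32.5% of all genes. Spop, an adaptor of the ligase that degrades Gli proteins, was higher by 1.04 (SE 0.14, adjusted p 4.32e-07) on the log2 scale, and Csnk1a1, a kinase that phosphorylates Gli proteins, by 0.43 (SE 0.090, adjusted p 2.24e-04) (edgeR). Sufu, the main cytoplasmic inhibitor of the Gli factors, was not called at 0.33 (SE 0.18, adjusted p 0.111). Of 7 cilium genes 1 was higher and 2 were lower, against the same shares of 24.9% and 32.5%. Ift88, needed to build the cilium, averaged 7.24 ± 3.04 CPM and 31.8 ± 11.2 CPM in batchA and 17.4 ± 9.61 CPM and 33.5 ± 10.7 CPM in batchB, a log2 fold change of 1.47 (SE 0.29, adjusted p 8.33e-05). Tulp3, which carries membrane receptors into the cilium, was lower, at -1.36 (SE 0.20, adjusted p 2.41e-06).

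Of 6 reported target genes outside the members 1 was higher and 3 were lower over both batches, against 24.9% and 32.5% of all genes. The counts were the same in batchA, against 19.3% and 24.2% of genes. In batchB 1 was higher and 5 were lower, against 27.1% and 27.6%. Foxf2, a forkhead factor of mesenchyme beside Hedgehog-secreting epithelium, averaged 61.2 ± 8.03 CPM and 97.6 ± 12.3 CPM in the Sox2-Negative libraries of batchA and batchB and was at most 0.570 CPM in any Sox2-Positive library. Its counts were 1570 against 3 in batchA, a ratio of 621 (95% counting interval 212 to 3016), and 2725 against 2 in batchB, a ratio of 1608 (445 to 13281). Foxf1, a related factor named after its values were seen, gave 1457 against 1 and 2289 against 4 counts. Like Hhip, both forkhead genes were near 0 in Sox2-Positive cells of each batch. They too passed the filter through their Sox2-Negative libraries. Their tests, and their places in the counts of lower target genes, are therefore a description. Ccnd2, a D-type cyclin, went the other way, at 543 ± 143 CPM and 1182 ± 120.4 CPM in batchA and 334 ± 62.2 CPM and 1444 ± 179 CPM in batchB, a log2 fold change of 1.48 (SE 0.15, adjusted p 2.26e-09).

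**Figure D4:**
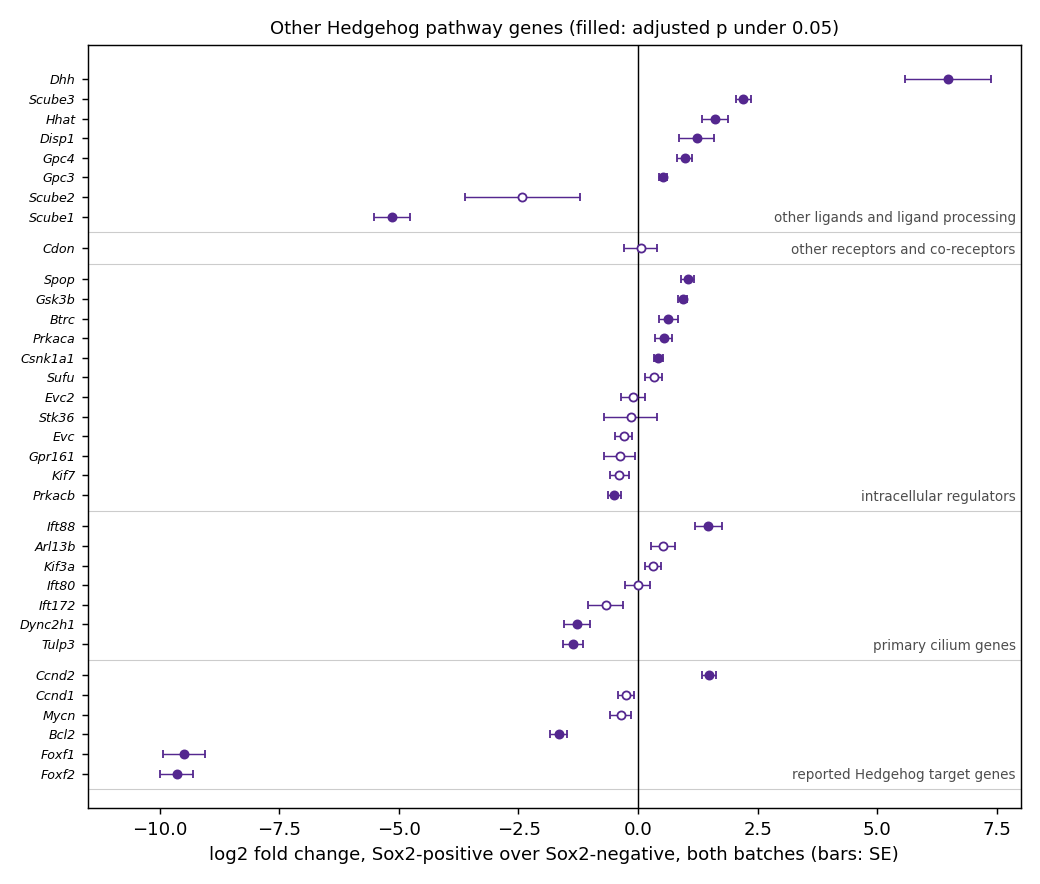
Log2 fold change over both batches, Sox2-Positive over Sox2-Negative, of the 34 other pathway genes tested, grouped by role, with bars of 1 SE and filled points where the adjusted p was under 0.05. Dhh, at 6.48, and Foxf2, at -9.65, stood at the ends. Dhh passed the filter through its batchA Sox2-Positive libraries and did not pass it in batchB alone, so its value is a description. Foxf1 and Foxf2 passed it through their Sox2-Negative libraries, so their values are a description too.

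**Figure D5:**
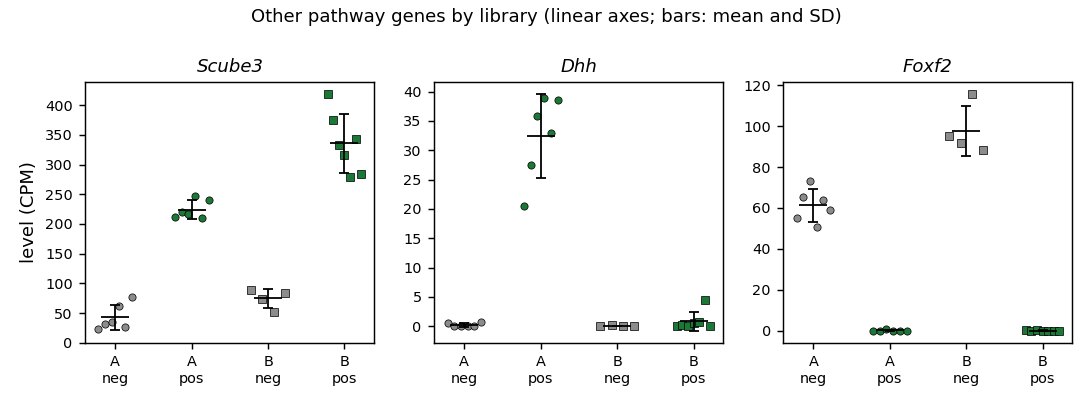
Levels of Scube3, Dhh and Foxf2 in each of the 23 libraries, in CPM on linear axes, by batch (A, circles; B, squares) and population (neg, grey; pos, green), with the group mean and SD as bars. Scube3 was higher in Sox2-Positive cells of both batches, Dhh was high in batchA Sox2-Positive libraries, and Foxf2 was near 0 in all Sox2-Positive libraries.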

How the data were processed

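The authors deposited 1 table of estimated counts for 54347 genes in 23 RNA-seq libraries. FastQC, Trimmomatic, Salmon and the mm10 build are named per the submitters' processing notes, without versions or settings. Only 0.000436% of nonzero deposited values were whole (within 1e-6), so the expected counts were rounded for testing. Symbols and lengths came from GENCODE M21 (54094 identifiers matched, 99.5%).

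Tests used edgeR 4.0.16 in R 4.3.3: TMM scaling, filterByExpr with a minimum count of 10, the quasi-likelihood F test, and Benjamini-Hochberg adjustment over all genes tested, with calls at an adjusted p under 0.05. Populations were compared over both batches with batch as a covariate and in each batch alone; a model of 4 group means gave the interaction and the batch comparisons. The SE of a log2 fold change was its size over the root of F, and CPM used TMM-scaled totals.

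The members and lists were chosen with earlier results of these data known. Named genes were the members, the genes with the highest and lowest fold change of each pathway group among those called with the same sign in both batches and each batch, and the 2 genes most correlated with each member on log2 CPM (prior count 2). A gene of the pathway list is not reported here. Scripts were tested on simulated data. Alternatives were DESeq2 1.42.0, limma-voom (limma 3.58.1), RLE size factors, total-count scaling, 2 other filters, thinned counts, a replicate block, a fit of group means, leaving out the batchB libraries numbered 1 and 2, and leaving out each library in turn.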

Additional observations from a re-analysis of the deposited data

Results flagged for a closer look

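Within groups of 4 to 7 libraries, 8 values of 18 genes stood outside the rest of their group by Dixon's criterion, in 72 groups examined. Chance alone flags about 1 in 20 groups where values are normally spread. Gli2 was at 94.9 CPM in batchA Sox2-Negative library 1 and between 11.2 and 33.2 CPM in the others. Gas1 was at 16.6 CPM in batchB Sox2-Positive library 4 and between 8.92 and 11.5 CPM in the others. Among the other pathway genes, Scube1 was at 221 CPM in batchA Sox2-Negative library 5 (others 101 to 138), and Spop at 162 CPM in batchA Sox2-Negative library 3 (others 56.7 to 76.9) and at 64.4 CPM, the lowest of its group, in batchB Sox2-Negative library 3 (others 92.8 to 98.3). At low levels, Foxf2 was at 0.570 CPM in batchA Sox2-Positive library 3, and Sox2 was at 0.247 CPM in batchA Sox2-Negative library 4 and at 1.13 CPM, from 10 counts, in batchB Sox2-Negative library 1, with 0 in the other libraries of each group. In such groups any single nonzero library meets the criterion, so the rate by chance given above does not apply to them.

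The difference between the populations itself differed between the batches for 3 of the genes named, by the interaction term of the edgeR fit: Shh at -3.01, Scube1 at -2.96 and Ccnd2 at 0.98 on the log2 scale, batchB minus batchA. Scube1 was lower and Ccnd2 higher in Sox2-Positive cells of each batch, by more in batchB.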

How the results depend on the processing

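Of the values of single genes under settings other than leaving out 1 library, 441 kept their direction and call, 14 gained and 10 lost a call, and 12 changed sign, none of which was called. Ptch1, Gli3, Hhip and Gas1 were lower in Sox2-Positive cells under every setting, over both batches and in each. Without the batchB libraries numbered 1 and 2, members higher in batchB fell from 2 to 1, members called between batches in Sox2-Positive cells from 4 to 2, and those higher there from 3 to 1; Gli2 in batchB was then -0.063 and the Ptch1 interaction -0.21. The fit of 4 group means also left 1 higher in batchB. DESeq2 and voom each gave 5 higher members between batches in Sox2-Positive cells: with DESeq2 Ptch1 (adjusted p 0.0484) and Hhip (0.0385) were added, and with voom Ptch1 (0.0325) and Gli2 (1.14, 0.0427). Thinned counts gave -0.14 for Gli2 in batchB, 0.025 for the Gli3 interaction, -0.12 for Gli1 between batches in Sox2-Negative cells and -0.077 for Gas1 in Sox2-Positive cells; total-count scaling gave 0.010 for the Gli3 interaction, -0.044 for Gli1 and -0.047 for Gas1. Voom gave 0.058 for the Gas1 interaction, and Boc was called over both batches with voom (1.12, adjusted p 0.00107) and thinned counts (0.89, adjusted p 0.0419). Per-length ranks kept were 13 of 36 with the median transcript length and 34 of 36 with total-count CPM.

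Leaving out 1 library at a time gave 1 to 3 higher members over both batches, 2 to 4 higher and 3 to 5 called between batches in Sox2-Positive cells, Boc from -0.076 to 0.63 in batchA, Gli2 from -0.12 to 0.53 in batchB and from -0.79 to 0.30 between batches in Sox2-Negative cells, interactions from -0.034 to 0.14 for Ptch1, from -0.17 to 0.13 for Gli3 and from -0.35 to 0.20 for Gas1, and Gas1 from -0.11 to 0.43 between batches in Sox2-Positive cells. The causes of these changes were not tested. Depth limits the values near the floor, those of Hhip, Foxf1, Foxf2 and, in batchB, Dhh in Sox2-Positive libraries, whose ratios have wide intervals.

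Libraries carry numbers within each group in the labels. Deviations of same-numbered libraries correlated at -0.021 to 0.043 in 10 pairs, and 1 of 10 correlated best with its own number, so the numbers were not taken as pairs. The fit with the number as a replicate block kept only the 10 same-numbered pairs, and so left out batchB Sox2-Positive libraries 5 to 7. With it, 7 members were called over both batches (2 higher, 5 lower), 7 in each batch and 1 by interaction, and no member gained or lost a call. The Gli3 interaction was 0.086 and that of Gas1 0.16.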
